A study of Mus musculus with 2 samples.

Results

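Transcripts of the BCL2 family, the proteins that decide at the mitochondrial membrane whether a cell survives, were followed in mouse macrophages with and without deoxycholic acid. Members were the rows of the deposited FPKM table (reads per kilobase of gene length and per 1e+06 reads) whose symbol was Bcl2, Bcl2l1, Bcl2l2, Mcl1, Bak1, Bid, Bad, Bmf or Bcl2l11. The rule found 10 rows among 15576, because the symbol Bcl2l2 is given to 2 identifiers. By identifier these rows hold 9 members, 4 anti-apoptotic, 1 effector and 4 BH3-only, and all 9 had a mean FPKM of at least 1. The study has 2 libraries from mouse bone marrow-derived macrophages, cells that grow out of cultured marrow, and the labels give no strain, genotype or age. One group was given 100 µM deoxycholic acid (DCA), a bile acid made by gut bacteria, for 24 h, and whether collection followed at once or a day later is not clear from the labels. The other, NC, was collected without it, and the sources used here name no vehicle. Each group is 1 library, so the differences below have no replicate check, and no test was made.

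BCL2 family proteins share short sequence stretches called BCL2 homology domains. The effectors BAK and BAX open the outer mitochondrial membrane and let cytochrome c out, which starts the caspase cascade. Anti-apoptotic proteins (BCL2, BCL-XL, BCL-W, MCL1) hold the effectors and their activators in check. BH3-only proteins (BID, BIM, BAD, BMF) bind into a groove of the other members through a single helix, the BH3 domain. Macrophages are long-lived cells that depend on M-CSF signals and MCL1 is among the proteins that keep myeloid cells alive. Much of the family's control lies in the protein (cleavage of BID, phosphorylation of BAD, rapid turnover of MCL1), which RNA sequencing does not see.

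The coding stretch of the BH3 core is printed for all members because that helix is what the 3 classes share. Each line gives 39 bases of coding sequence, read 5′ to 3′ on the sense strand from the GENCODE vM21 transcripts on GRCm38. Capitals mark the codons of the 3 most conserved core residues, a large hydrophobic residue, a small residue and an aspartate.
Mcl1: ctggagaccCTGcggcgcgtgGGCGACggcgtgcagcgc
Bcl2l1: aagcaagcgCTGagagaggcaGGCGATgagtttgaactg
Bcl2l2: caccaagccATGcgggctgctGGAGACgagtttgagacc
Bcl2: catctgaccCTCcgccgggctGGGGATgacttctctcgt
Bak1: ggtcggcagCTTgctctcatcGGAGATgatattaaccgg
Bid: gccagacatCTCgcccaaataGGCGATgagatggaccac
Bcl2l11: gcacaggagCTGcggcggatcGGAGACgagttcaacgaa
Bad: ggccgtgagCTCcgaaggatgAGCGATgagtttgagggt
Bmf: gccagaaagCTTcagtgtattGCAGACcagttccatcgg

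Each stretch was located by a set pattern of residues, in the longest coding sequence among the transcripts that matched it. Transcripts without a match were passed over, so the matches do not measure how conserved the core is. The pattern occurred once in each of the 9 reading frames used, and the stretch lay within 1 exon in all 9. The second capital codon begins with GG in 7 of 9 members. The others are the BH3-only genes Bad, with AGC, and Bmf, with GCA. The stretches lie at chr3:95659427-95659465 in exon 1 of 3 for Mcl1 (plus strand), chr2:152829694-152829732 in exon 2 of 3 for Bcl2l1 (minus) and chr14:54884508-54884546 in exon 3 of 4 for Bcl2l2 (plus). Those of Bcl2 and Bak1 lie at chr1:106712572-106712610 in exon 1 of 2 and chr17:27022528-27022566 in exon 4 of 6, both on the minus strand. Among the BH3-only genes they lie at chr6:120897286-120897324 in exon 4 of 6 for Bid (minus), chr2:128147141-128147179 in exon 3 of 4 for Bcl2l11 (plus), chr19:6950783-6950821 in exon 3 of 4 for Bad (plus) and chr2:118545097-118545135 in exon 4 of 5 for Bmf (minus). The deposited values are per gene, so any splice forms with and without this stretch cannot be told apart.

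The read totals behind the values were 56.6 M (DCA) and 59.2 M (NC), M being 1e+06 reads. All 12 macrophage markers were measured and none was at 0, with a summed FPKM of 1098 in DCA and 1142 in NC. Markers of other marrow cells were present too. The 16 neutrophil markers summed to 4350 FPKM in DCA and 3685 in NC. Most of that sum came from S100a8 (1043 and 851) and S100a9 (1699 and 1471). The 15 measured lymphocyte markers summed to 185 and 153, and the 10 eosinophil, mast cell and basophil markers to 165 and 125. These sums weigh genes by deposited FPKM and do not give the share of a cell type. Among these lists a single gene, the T-cell gene Cd3g, was listed at 0, in NC.

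One of the rows labelled Bcl2l2 is another gene. Its identifier, ENSMUSG00000022194, is Pabpn1 in the annotation (GRCm38 chromosome 14, 54892500 to 54898169), which encodes a poly(A)-binding protein and lies just downstream of Bcl2l2. It measured 9.28 FPKM with DCA against 8.49 without. The row of Bcl2l2 itself, ENSMUSG00000089682, had 4.52 and 4.69. These rows point in opposite directions, with a ratio of DCA over NC of 1.09 for the Pabpn1 row and 0.964 for Bcl2l2. Between them runs Gm20521, an annotated gene that joins exons of both and covers 594 of the 4462 exonic bases of Bcl2l2 (13.3%). Gm20521 gave 188 reads with DCA against 407 without, for a DCA/NC ratio of 0.483 (95% counting interval 0.405 to 0.576). Summed over the 3 genes the reads were 7453 and 7656, for a DCA/NC ratio of 1.02 (0.987 to 1.05). Only the identifier named Bcl2l2 in the annotation is used as a member below.

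Mcl1 was by far the most abundant member, and Bcl2 had the lowest level per kilobase of merged exons. Levels of different genes were compared as rebuilt reads per kilobase of merged exon length and per 1e+06 reads, since the deposited FPKM divides by the summed length of all transcripts of a gene. On this scale Mcl1 had a level of 244.7 in DCA and 228.7 in NC. That placed it 96th and 102nd of the 9374 genes with rebuilt reads and a mean FPKM of at least 1. It was 10.5 times as high as Bcl2l1 in DCA and 9.51 times in NC, a factor that depends on the length used, at 5.90 and 5.32 per longest transcript and 24.4 and 22.0 from deposited FPKM. Mcl1 made up 86.8% and 85.6% of the summed level of the anti-apoptotic members. The effector Bak1 came next, at 43.2 and 40.2, followed by Bid at 28.4 and 25.7 and Bcl2l1 at 23.2 and 24.1.

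The remaining members were within a narrow band of levels. Bcl2l11 had a level of 10.2 in DCA and 9.54 in NC, Bcl2l2 8.98 and 9.31, and Bad 7.73 and 8.12. Bmf stood at 6.31 and 6.59 and Bcl2 at 5.03 and 5.004, where 22.6% and 22.7% of the 9374 genes were lower. The order of the 9 members was the same in both libraries. Counting intervals of neighbours in that order overlapped for 1 pair, Bcl2l11 and Bcl2l2, and in NC only. Part of the order depends on the length used: per longest transcript Bcl2l1 was ahead of Bak1 and Bid in NC but behind both in DCA, and Bad was ahead of Bcl2l2 in both libraries, with Mcl1 still first and Bcl2 last. By deposited FPKM Mcl1 was first too, but Bad and not Bcl2 was last.

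**Figure D1:**
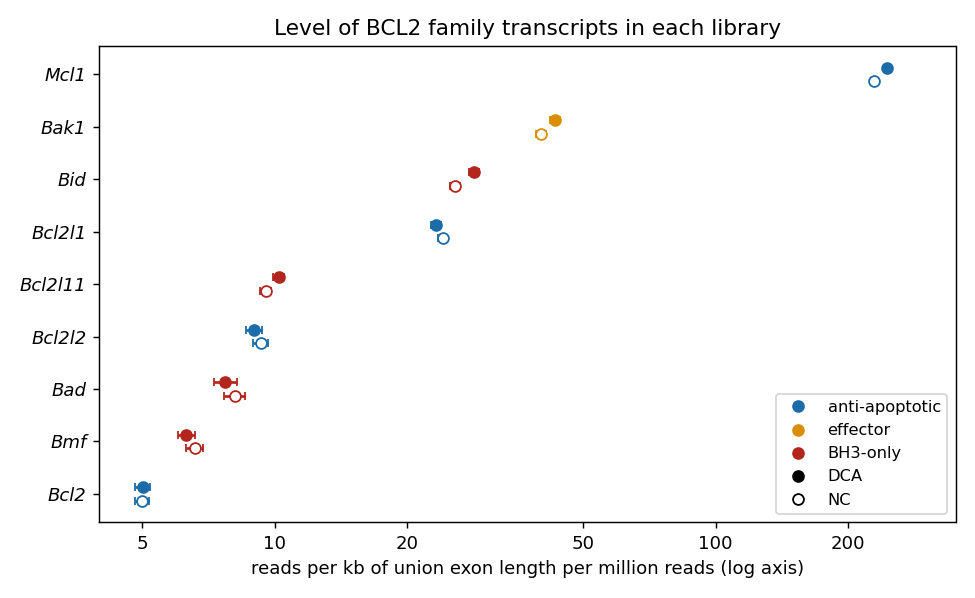
Levels of the 9 members in reads per kilobase of merged exon length and per 1e+06 reads (log axis), in DCA (filled) and NC (open), with 95% counting intervals as bars and colours for the class. Mcl1 stands alone at 244.7 and 228.7, and the shift between the libraries is small beside the distances between most members.

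No member differed between the libraries by as much as 1.2-fold in FPKM. Of 9656 genes whose mean FPKM was 1 or more, 4.07% were higher in DCA by 1.2-fold or more and 2.01% were lower by as much, against 0 of 9 members in either direction. At 1.5-fold the shares were 0.673% and 0.259%, again with 0 members. At 1.1-fold they were 13.2% and 8.34%, with 1 member higher (Bid) and 0 lower. Ratios of DCA over NC ran from 0.953 for Bad to 1.11 for Bid. The median log2 ratio of the 9 members was 0.01, and that of all genes tested was 0.01 as well. The ratio lay above 1 in 5 of 9 members and in 53.5% of all genes. In bulk RNA a change in the share of a cell type and a change per cell cannot be told apart.

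**Figure D2:**
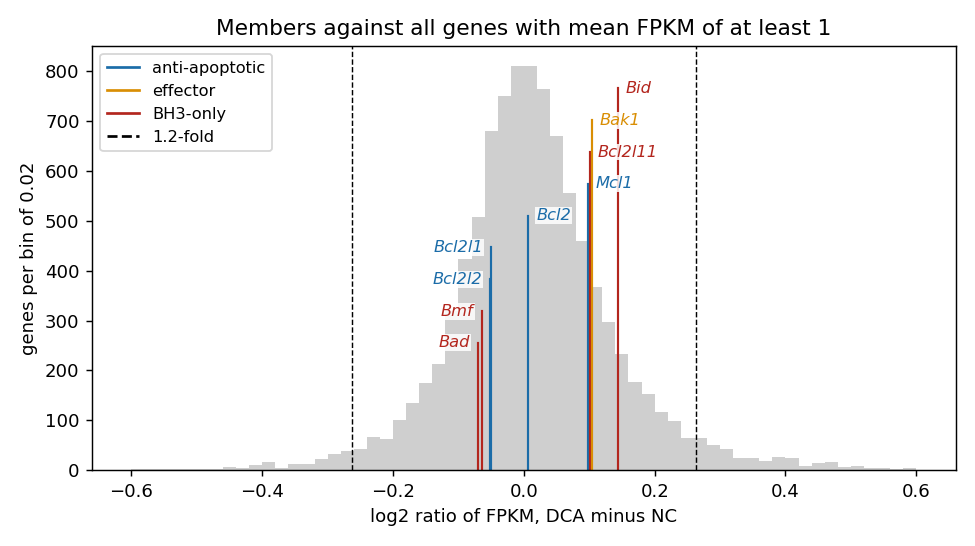
Histogram of the log2 ratio of FPKM (DCA minus NC) for genes whose mean FPKM was 1 or more, with the 9 members as coloured lines whose height carries no value and dashed lines at 1.2-fold. All members lie inside the dashed lines. The axis ends at 0.6 on either side, which leaves out 80 genes, and genes at 0 in a library are not drawn.

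Among the anti-apoptotic genes, Mcl1 was higher in DCA and the other members were close to equal or slightly lower. Mcl1 (ENSMUSG00000038612, GRCm38 chromosome 3, 95658788 to 95663176, plus strand), whose protein restrains BAK and is rapidly turned over, measured 196 FPKM with DCA against 183 without. These values rest on 47323 and 46276 reads, for a DCA/NC ratio of 1.07 (95% counting interval 1.06 to 1.08). This was the narrowest interval of the family, and it excluded equality. Of all genes tested, 34.3% were at least as far from equality as Mcl1. No other annotated gene overlaps its exons.

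Bcl2l1, which encodes BCL-XL, the second main survival protein of many mature cells (ENSMUSG00000007659, chromosome 2, 152780668 to 152831728, minus strand), measured 8.03 FPKM with DCA against 8.32 without. With 6024 and 6530 reads the ratio was 0.965 (0.932 to 1.0), an interval whose upper end just includes equality. Bcl2l1 was thus on the other side of 1 from Mcl1, and the intervals of the pair did not overlap. Bcl2l2, which encodes BCL-W (ENSMUSG00000089682, chromosome 14, 54883377 to 54888234, plus strand), rested on 2267 and 2460 reads, for a DCA/NC ratio of 0.964 (0.911 to 1.02). Bcl2, the founding survival gene of the family and one that lymphocytes rely on (ENSMUSG00000057329, chromosome 1, 106538178 to 106714274, minus strand), measured 4.59 FPKM with DCA against 4.57 without. Its 2605 and 2713 reads gave a ratio of 1.005 (0.952 to 1.06), and 94.0% of all genes were at least as far from equality. An antisense gene, D630008O14Rik, overlaps 6.09% of its exonic bases and was not analysed here. Summed over the anti-apoptotic genes other than Mcl1, the reads were 10896 and 11703, for a DCA/NC ratio of 0.974 (0.949 to 1.0) that also includes equality.

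The effector Bak1 was slightly higher in DCA. It encodes BAK, which sits in the outer mitochondrial membrane (ENSMUSG00000057789, chromosome 17, 27019810 to 27029009, minus strand), and measured 14.4 FPKM with DCA against 13.4 without. The 5883 and 5729 reads gave a ratio of 1.07 (1.04 to 1.11), which excluded equality. Annotated exons of Ggnbp1, on the opposite strand, cover 437 of its 2407 exonic bases (18.2%) under one identifier and 177 (7.35%) under another. Those identifiers had 83 and 572 reads in DCA against 134 and 613 in NC, with ratios of 0.648 and 0.977. The part of overlapping reads in the value of Bak1 was not tested.

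The BH3-only genes split evenly, with Bid and Bcl2l11 higher and Bad and Bmf lower in DCA. Bid, whose protein links death receptors to mitochondria once a caspase cuts it (ENSMUSG00000004446, chromosome 6, 120891930 to 120916853, minus strand), measured 16.3 FPKM with DCA against 14.8 without. Its 5694 and 5392 reads gave a ratio of 1.11 (1.06 to 1.15), the highest of the family. Of all genes tested, 19.9% were at least as far from equality. The exons of Bid overlap those of its relative Bcl2l13 on the opposite strand over 628 of 3550 bases (17.7%), and the sources used here do not give the strand setting of the counting. Bcl2l13 did not share the direction, with a ratio of 0.989 (0.945 to 1.03), and the sum of both genes had a ratio of 1.06 (1.03 to 1.09).

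Bcl2l11 encodes BIM, a strong activator of the effectors that is raised when growth factors are withdrawn (ENSMUSG00000027381, chromosome 2, 128126038 to 128162547, plus strand). It measured 4.83 FPKM with DCA against 4.50 without (4647 and 4536 reads), with a DCA/NC ratio of 1.07 (1.03 to 1.12). That is a ratio like those of Mcl1 and Bak1, and no annotated exon overlaps it. Bad, a sensitizer held by 14-3-3 proteins when phosphorylated (ENSMUSG00000024959, chromosome 19, 6941861 to 6951899, plus strand), had 2.23 and 2.34 FPKM. It had the fewest reads of all members, 1119 and 1229, and a ratio of 0.953 (0.878 to 1.03). Exons of Gpr137 on the opposite strand cover 20.5% of its bases, with 1151 and 1132 reads of their own. Bmf, whose protein is tethered to the cytoskeleton in healthy cells (ENSMUSG00000040093, chromosome 2, 118528757 to 118549687, minus strand), had 2.94 and 3.08 FPKM (1874 and 2051 reads) and a ratio of 0.956 (0.898 to 1.02). The intervals of Bad and Bmf include equality, like those of Bcl2, Bcl2l1 and Bcl2l2.

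**Figure D3:**
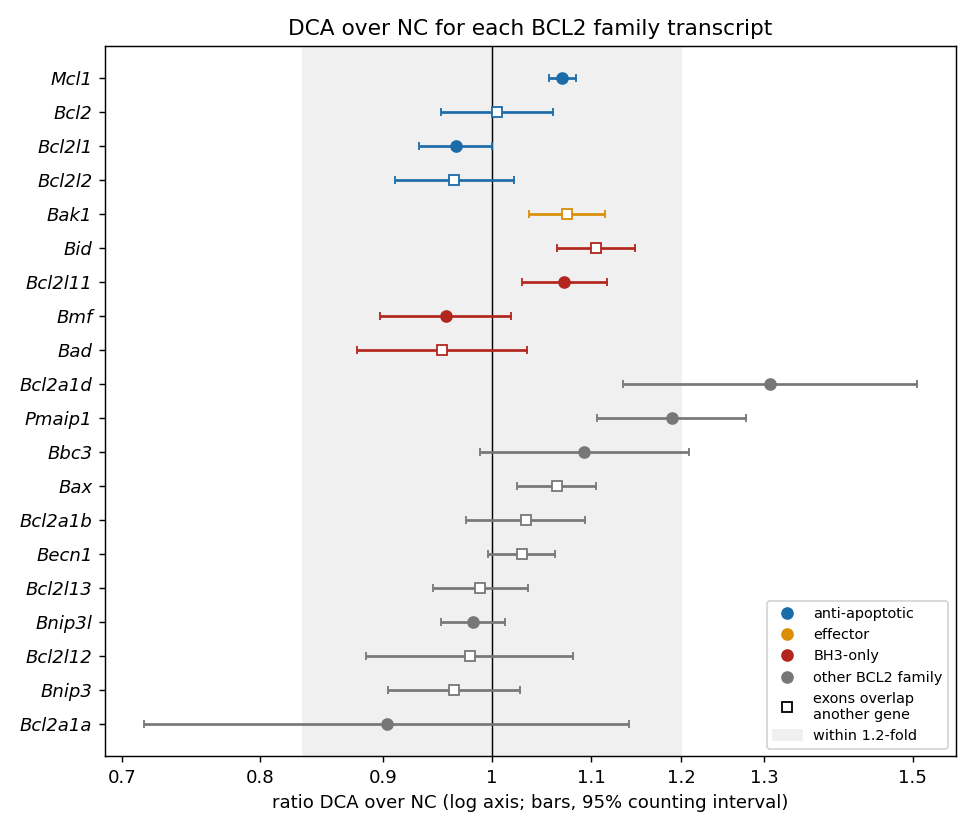
Ratio of DCA over NC (log axis) for the 9 members and 11 other genes of the wider family (mean FPKM of 1 or more), with 95% counting intervals. Open squares mark genes whose exons overlap another annotated gene, and the grey band is the range within 1.2-fold. Intervals of Mcl1, Bak1, Bid and Bcl2l11 lie to the right of 1, and none of the 9 members lies wholly to the left.

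Across the family, counting intervals excluded equality for 4 of 9 members, all higher in DCA (Mcl1, Bak1, Bid and Bcl2l11), and for 0 on the lower side. Of the 9374 genes with rebuilt reads and a mean FPKM of at least 1, 25.6% had an interval above equality and 20% below it. The intervals cover counting error only. The differences between the libraries spread 2.64 times as widely as counting of independent reads gives, so an interval that excludes equality does not show a difference between cultures. By class, the median log2 ratio was -0.02 over the 4 anti-apoptotic genes and 0.02 over the 4 BH3-only genes, beside 0.10 for Bak1 alone. Members above and below 1 occurred in both larger classes. The sign of the anti-apoptotic median turned to 0.02 when members with a mean FPKM under 5 or with overlapping exons were left out.

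The balance of anti-apoptotic to BH3-only transcripts was the same in both libraries within counting error. Summed levels per kilobase were 282 for the anti-apoptotic and 52.6 for the BH3-only genes in DCA, and 267 and 49.9 in NC. Their quotient was 5.36 (5.25 to 5.47) in DCA and 5.35 (5.24 to 5.46) in NC, and the change between the libraries was 1.001-fold (0.973 to 1.03). Over the members whose exons overlap no other gene the quotient was 16.2 in DCA and 15.7 in NC. Mcl1 and Bid carried most of both sums, with Bid making up 53.9% of the BH3-only level in DCA and 51.4% in NC. Without Mcl1 the quotient was 0.707 in DCA and 0.769 in NC, a change of 0.920 (0.887 to 0.955). These quotients cover the members only. Outside them the survival gene Bcl2a1b had a level of 50.2 in DCA and 48.6 in NC. That is above the sum of the anti-apoptotic members without Mcl1 (37.2 and 38.4). The BH3-only genes Pmaip1 (10.4 and 8.78) and Bbc3 (6.64 and 6.08) were left out as well.

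Relatives outside the 9 members gave a similar picture, with Pmaip1 and Bcl2a1d, higher in DCA, and Bcl2a1a, lower in DCA, further from equality than any member. Bax, the other effector, measured 24.5 FPKM with DCA against 23.1 without, for a DCA/NC ratio of 1.06 (1.02 to 1.11), like that of Bak1, and its exons overlap those of Gm45808. The BH3-only gene Pmaip1, which encodes NOXA, the partner that directs MCL1 to degradation, had 4.55 and 3.82 FPKM from 1613 and 1420 reads. Its ratio was 1.19 (1.11 to 1.28), just short of 1.2-fold. Bbc3, which encodes the p53-induced PUMA, had 3.93 and 3.60 FPKM, for a DCA/NC ratio of 1.09 (0.989 to 1.21).

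The Bcl2a1 genes encode A1, a survival protein of haematopoietic cells, in several near-identical copies, so the split of reads among them is uncertain. Bcl2a1d was the 1 gene of 11 tested relatives past 1.2-fold, at 9.16 FPKM with DCA against 7.01 without (447 and 358 reads), for a DCA/NC ratio of 1.31 (1.135 to 1.51). By comparison, 4.07% of all genes tested were higher by 1.2-fold or more and 2.01% lower. Bcl2a1b had 50.2 and 48.6 FPKM, for a DCA/NC ratio of 1.03 (0.975 to 1.09), and Bcl2a1a had 139 and 161 reads, for a DCA/NC ratio of 0.904 (0.715 to 1.14). Summed over the 3 copies the ratio was 1.06 (1.01 to 1.12). Of the other relatives, Becn1, Bcl2l12, Bcl2l13, Bnip3 and Bnip3l had ratios between 0.964 and 1.03, with intervals that include equality. Bok, Hrk and Bcl2l10 were not analysed here.

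Genes that act before and after the BCL2 proteins and had a mean FPKM of 1 or more showed no difference of 1.2-fold either. In the list of the apoptosome, caspases and their inhibitors, 0 of 19 tested genes passed that limit, and the median log2 ratio was -0.01. Of all genes tested, 4.07% were higher and 2.01% lower by at least 1.2-fold. The scaffold Apaf1 had a ratio of 0.994 (0.967 to 1.02), cytochrome c (Cycs) 0.998 (0.943 to 1.06) and the initiator caspase gene Casp9 0.958 (0.915 to 1.003). The caspase inhibitor gene Xiap had a ratio of 1.02 (0.993 to 1.05). Counting intervals lay below equality for 4 genes of this list and above it for 0. Of the 9374 tested genes with rebuilt reads, 20% and 25.6% had such intervals. They lay above equality for 4 and below it for 0 of the death receptors and adaptors, for 8 and 5 of the binding partners and turnover factors, and for 4 and 3 of the transcriptional regulators.

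Death receptors and adaptors had 0 of 11 tested genes past 1.2-fold and a median log2 ratio of 0.03. Cflar, which encodes the caspase-8 inhibitor FLIP, had a ratio of 1.03 (0.997 to 1.06). Binding partners and turnover factors of BCL2 proteins, among them 14-3-3 proteins and the MCL1 ubiquitin ligase gene Huwe1, had 0 of 20 past the limit and a median of 0.01. Transcriptional regulators had 0 of 16 and a median of 0.02, with Trp53 at a ratio of 0.947 (0.912 to 0.982), Foxo3 at 1.03 (0.999 to 1.07) and Ddit3 at 0.970 (0.904 to 1.04). These medians stand beside 0.01 for all genes tested, and the counts beside 4.07% of all genes higher and 2.01% lower by at least 1.2-fold.

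**Figure D4:**
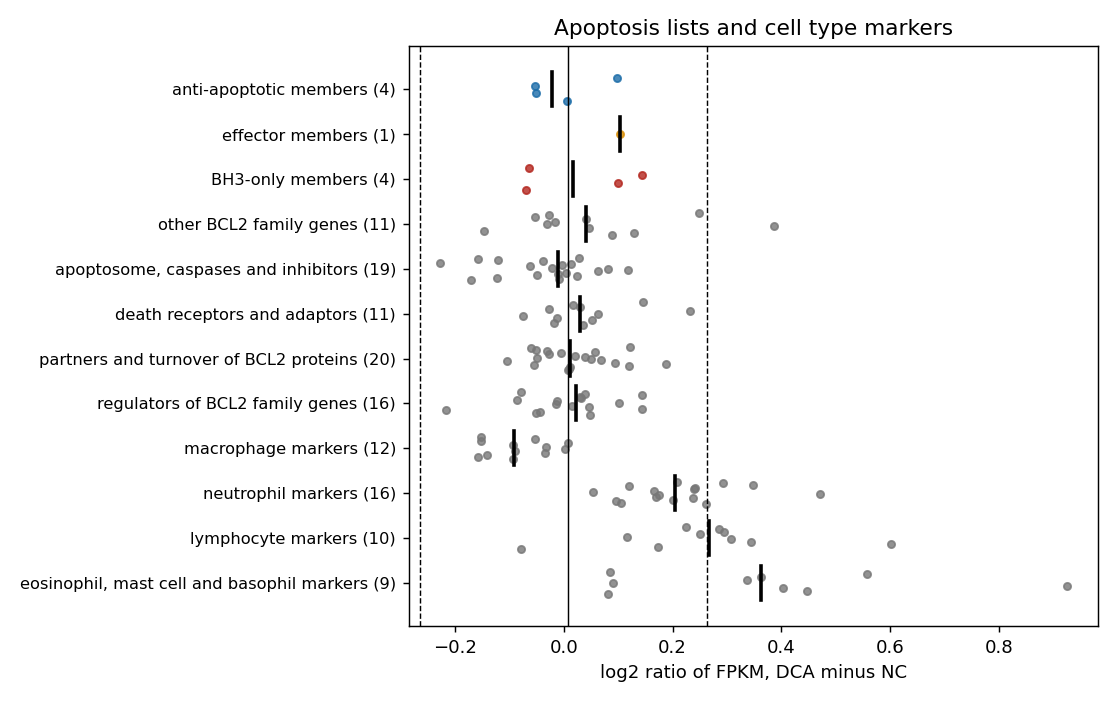
Log2 ratio of FPKM (DCA minus NC) for each gene (mean FPKM of 1 or more) in the 3 member classes, the apoptosis lists and the cell type marker lists, with the number of genes in brackets. Thick bars are list medians, the thin line is the median of all genes and dashed lines mark 1.2-fold. Points of the apoptosis lists gather around 0. Markers of neutrophils and of eosinophils, mast cells and basophils lie to the right, as do the lymphocyte markers except Blnk. Most macrophage markers lie to the left.

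Markers of other marrow cells lay further from equality than the BCL2 family, a difference between lists that was not tested. Neutrophil markers had ratios above 1 in 16 of 16 tested genes, with a median ratio of 1.15, and 3 were past 1.2-fold (Ly6g at 1.39, the resistin-like gene Retnlg at 1.27 and the calprotectin gene S100a8 at 1.22). Lymphocyte markers were above 1 in 9 of 10 tested genes (Blnk was at 0.948), with a median of 1.204. They were led by Cd4 at 1.52 (mean FPKM 1.05), Cd79a at 1.27 and Cd79b at 1.24, the last pair being parts of the B-cell receptor. The lymphocyte markers under a mean FPKM of 1 went both ways. Vpreb1 had a ratio of 2.01, Cd8a 1.80, Igll1 0.488 and Cd3e 0.458, and Cd3g was at 0 in NC. Eosinophil, mast cell and basophil markers were above 1 in 9 of 9, with a median of 1.29, led by the eosinophil granule genes Epx at 1.90, Prg2 at 1.47 and Ear1 at 1.36. Macrophage markers were below 1 in 10 of 12, with a median of 0.939, and 0 were past 1.2-fold. Of the 9 members, 5 had ratios above 1 and 4 below it, and of the 11 tested relatives 6 were above and 5 below. Of all genes tested, 53.5% were above 1. With 2 libraries it cannot be seen whether genes vary together. The part of other cell types in the members' ratios was not tested.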

How the data were processed

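RNA sequencing of 2 libraries, 1 per group, was analysed from the FPKM values that the authors deposited for 15576 genes. The submitters' processing notes list HTSeq 0.6.0, STAR 2.5.0c, DESeq2 3.0, bedtools 2.17.0 and Picard 1.126, with no role or order, and the build GRCm38. With the summed length of all GENCODE vM21 transcripts, FPKM values of 11373 of 11794 genes under 5000 reads (96.4%) gave whole reads in each library (tolerance 0.05). Bmf needed a length of 11262 in place of 11058. A count test needs replicates and was not run.

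Ratios are FPKM in DCA over NC, with no pseudocount, over 9656 genes whose mean FPKM was 1 or more, and a gene was counted as different at 1.2-fold. Intervals are 95% intervals: exact Clopper-Pearson for ratios of rebuilt reads, exact Poisson for levels, and normal on the log scale for the balance. They cover counting error only, and PCR copies are not independent molecules. The calculation was tested on simulated libraries with counting noise only, so that test does not cover the wider spread between these libraries. Python 3.11.15 and scipy 1.17.1 were used.

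The members and lists were chosen with earlier results of these data known. Named are the members, genes overlapping them, relatives and regulators fixed by name and up to 3 per direction and list past 1.2-fold. Huwe1, Cd3g, S100a9, Blnk, Pabpn1, Becn1, Bnip3, Bnip3l, Bcl2l12 and the genes of the closing section were chosen after their values were seen. Some genes fixed by name are not reported here.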

Additional observations from a re-analysis of the deposited data

How the results depend on the processing

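No paired analysis was possible because each group has 1 library, and no library could be left out. The count of 0 members past the limit in either direction held under 2 rescalings, which moved the ratio of Bid only from 1.105 to 1.095 and 1.099. It held under both pseudocounts too, but these pull ratios toward 1 and could not raise it. The count also held with the second row labelled Bcl2l2, an alternative chosen after seeing the data. The other settings could not raise a count of 0 either. No filter, a minimum mean FPKM of 5 and leaving out genes with overlapping exons add no member and change no ratio, and a 1.5-fold limit is wider. At a 1.1-fold limit 1 member was higher (Bid, where 13.2% of all genes were) and 0 lower, and by counting intervals 4 were higher. With a mean FPKM of at least 5 the median log2 ratio of the BH3-only members was 0.14, since Bid alone remained. The change in the balance of anti-apoptotic to BH3-only transcripts was 1.03 over members without overlapping exons and 0.920 without Mcl1, an alternative chosen after seeing the data. Of 53 ratios of single members under the alternatives, all stayed within the counting interval of the reported ratio, and 2 lay on the other side of 1, both of Bcl2. This says little about stability, since the filters leave a ratio unchanged and each rescaling multiplies all genes by the same factor. The quotient itself was 3.88 in DCA and 3.91 in NC per longest transcript, 8.08 and 8.11 from deposited FPKM, and 16.2 and 15.7 over members without overlapping exons.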

Other observations

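Some death genes lay below the minimum mean FPKM of 1 and were further apart than any member. Tnfrsf10b, which encodes the TRAIL receptor of the mouse, measured 0.545 FPKM with DCA against 0.344 without (215 and 142 reads), for a DCA/NC ratio of 1.58 (95% counting interval 1.28 to 1.97). Bik, a BH3-only gene, lay lower with DCA, at 13 against 41 reads and a ratio of 0.332 (0.163 to 0.632). Bcl2l14 had 66 and 42 reads, a ratio of 1.64 (1.1 to 2.48), and Bcl2l15 had 4 and 14. These genes were chosen after their values were seen. Without a filter 12.7% of all genes with a value in both libraries were at least 1.2-fold higher and 8.88% lower.

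Among tested genes near the 1.2-fold limit, Ripk3, the kinase of necroptosis, measured 5.02 FPKM with DCA against 4.28 without, for a DCA/NC ratio of 1.17 (1.11 to 1.25). Its substrate gene Mlkl had 5.12 and 5.39 FPKM, for a ratio of 0.950 (0.886 to 1.02). On the lower side Dffb, the nuclease that cuts DNA in apoptosis, had a ratio of 0.854 (0.752 to 0.971), Aifm1 0.888 (0.839 to 0.941) and E2f1, a transcription factor of the cell cycle, 0.861 (0.818 to 0.906).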
